A study of Rattus norvegicus with 4 samples.

Results

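Il33 and 4 related genes were followed across the cells of rat peripheral nerve: Il33, its receptor Il1rl1, and the inflammatory cytokines Il1b, Tnf and Il18. They are 5 of the 25399 genes measured, and all 5 had transcripts in each of the 4 libraries. The genes were chosen by name with earlier measurements of these same cells known, so their levels are given as a description and no test is made of them. The series profiled single cells of Sprague Dawley rats by droplet RNA sequencing, from sciatic nerve or dorsal root ganglion (DRG, the cluster of sensory neurons beside the spinal cord). Animals were 1 day or 8 weeks old, which makes 4 groups with 1 library each: 1-day sciatic nerve, 8-week sciatic nerve, 1-day DRG and 8-week DRG. The labels name no treatment or altered gene, and sex was not determined. The labels also carry a culture protocol for Schwann cells in serum medium, with no word on whether the cells that were sequenced went through it.

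Interleukin-33 (Il33) is an IL-1 family cytokine that is stored in the nucleus of stromal and barrier cells and released when they are damaged. It binds the receptor ST2, the product of Il1rl1, which signals together with the shared co-receptor Il1rap in group 2 innate lymphoid cells (ILC2s), mast cells and regulatory T cells. Interleukin-1 beta (Il1b) and interleukin-18 (Il18) are made as inactive precursors, mostly by myeloid cells, and are cut to their active form by caspase-1 in the inflammasome. Tumour necrosis factor (Tnf) belongs to another family, and its receptors, like those of the IL-1 family, feed into NF-kB.

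Each cell barcode ended in a number from 1 to 4 that none of the labels ties to a tissue or age. The libraries are therefore named by that number and belong to no known group here. Ratios are taken only between cells of the same library, and levels of different libraries are set side by side without a test, since a difference between single libraries has no replicate check. After filtering, 9433, 8426, 6473 and 8445 cells remained in libraries 1 to 4, with a median of 6504, 1645.5, 4639 and 7554 unique molecular identifiers (UMIs, the count of captured transcripts) per cell. Of the barcode sequences, 41061 occurred in 1 library, 190 in 2 and 1 in 3. Doublet calling marked 395 barcodes in library 1, 0 in libraries 2 and 3 and 3 in library 4, so it did not work outside library 1. Levels are in CPM: the UMIs of a gene per 1000000 UMIs summed over the cells of a class. Intervals are exact 95% intervals and cover counting error only. With 1 library per group there is no replicate error and no p-value.

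The start regions of the ligand genes are shown because their transcripts divided between stromal and myeloid cells in the values that follow. Sequences are from RefSeq (build GRCr8), run 5′ to 3′ on the gene's own strand over 300 bases that end just past the annotated start (+1), and have motif matches in capitals. Il33 has 2 annotated starts on chromosome 1, chr1:237115323-237115622 (plus strand, called upstream) and chr1:237134696-237134995 (plus strand, called downstream). Il1b starts at chr3:137036532-137036831 (minus strand), Tnf at chr20:3626435-3626734 (plus strand) and Il18 at chr8:59801822-59802121 (plus strand).
Il33 upstream: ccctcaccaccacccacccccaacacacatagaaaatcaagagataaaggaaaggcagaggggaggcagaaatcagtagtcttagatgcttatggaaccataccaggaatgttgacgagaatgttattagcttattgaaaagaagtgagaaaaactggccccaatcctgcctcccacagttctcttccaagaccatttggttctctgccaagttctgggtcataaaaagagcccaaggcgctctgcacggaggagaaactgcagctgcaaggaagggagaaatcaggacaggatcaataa
Il33 downstream: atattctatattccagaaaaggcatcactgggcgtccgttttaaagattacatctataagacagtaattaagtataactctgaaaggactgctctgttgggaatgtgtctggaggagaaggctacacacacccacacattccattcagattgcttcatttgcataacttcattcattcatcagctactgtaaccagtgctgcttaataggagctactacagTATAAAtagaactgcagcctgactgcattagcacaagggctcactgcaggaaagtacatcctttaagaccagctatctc
Il1b: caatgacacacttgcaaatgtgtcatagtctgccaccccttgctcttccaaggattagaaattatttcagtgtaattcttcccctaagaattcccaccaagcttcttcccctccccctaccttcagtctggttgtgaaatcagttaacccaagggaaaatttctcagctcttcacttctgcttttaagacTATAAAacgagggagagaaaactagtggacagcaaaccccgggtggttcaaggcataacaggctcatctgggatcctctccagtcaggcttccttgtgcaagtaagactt
Tnf: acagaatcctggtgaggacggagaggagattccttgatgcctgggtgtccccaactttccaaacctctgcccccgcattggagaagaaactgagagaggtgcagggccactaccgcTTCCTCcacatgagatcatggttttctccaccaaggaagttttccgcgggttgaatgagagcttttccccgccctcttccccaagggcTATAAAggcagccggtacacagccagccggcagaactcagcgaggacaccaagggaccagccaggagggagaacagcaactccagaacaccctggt
Il18: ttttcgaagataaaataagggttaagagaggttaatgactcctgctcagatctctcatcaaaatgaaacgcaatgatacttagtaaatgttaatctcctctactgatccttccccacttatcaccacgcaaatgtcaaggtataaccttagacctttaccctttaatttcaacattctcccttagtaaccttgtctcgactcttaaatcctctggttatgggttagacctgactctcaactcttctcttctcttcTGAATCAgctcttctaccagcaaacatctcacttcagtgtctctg
The TATA box (TATAAA) lies at -29 to -24 of the downstream Il33 start, at -60 to -55 of Il1b and at -46 to -41 of Tnf, and 14.2% of 33469 RefSeq promoters of this length hold it on either strand. The PU.1 core (GAGGAA, either strand, in 27.6% of promoters) matched in Tnf on the minus strand at -134 to -129, where the capitals read TTCCTC. A loose AP-1-like pattern (TGANTCA, with any middle base, in 7.33%) matched in Il18 at +6 to +12, where the capitals read TGAATCA. The upstream Il33 start held none of these motifs, and the NF-kB motif, found in 7.51% of promoters, had no match in any of the 5 windows. A match is a stretch of letters and does not show binding, and the 3′ counts used here do not tell which Il33 start was used.

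Il33 was a fibroblast transcript in all 4 libraries. Fibroblasts, the collagen-producing cells of the nerve sheaths, were gated on Col1a1, Col1a2, Col3a1, Dcn, Lum and Pdgfra, and these 6 markers summed to 123941, 48808, 30852 and 58245 CPM in the gated cells of libraries 1 to 4. The Il33 level in fibroblasts was 837 CPM (829 to 844) in library 1, 764 (734 to 795) in library 2, 35.5 (31.8 to 39.5) in library 3 and 53.6 (50.1 to 57.1) in library 4. Libraries 1 and 2 thus stood high and libraries 3 and 4 low, a difference between single libraries that was not tested. At least 1 Il33 UMI was found in 82.1% of 6254 fibroblasts in library 1, 72.4% of 446 in library 2, 10.4% of 1438 in library 3 and 27.6% of 1169 in library 4. After every cell was thinned to 1500 UMIs, the shares were 58.2%, 49.5%, 4.86% and 6.88%, so the gap between the pairs remained at equal depth. Fibroblasts held 98.7% of the Il33 UMIs of library 1, 65.2% in library 2, 71.0% in library 3 and 94.9% in library 4, while making up 66.3%, 5.29%, 22.2% and 13.8% of the cells.

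**Figure D1:**
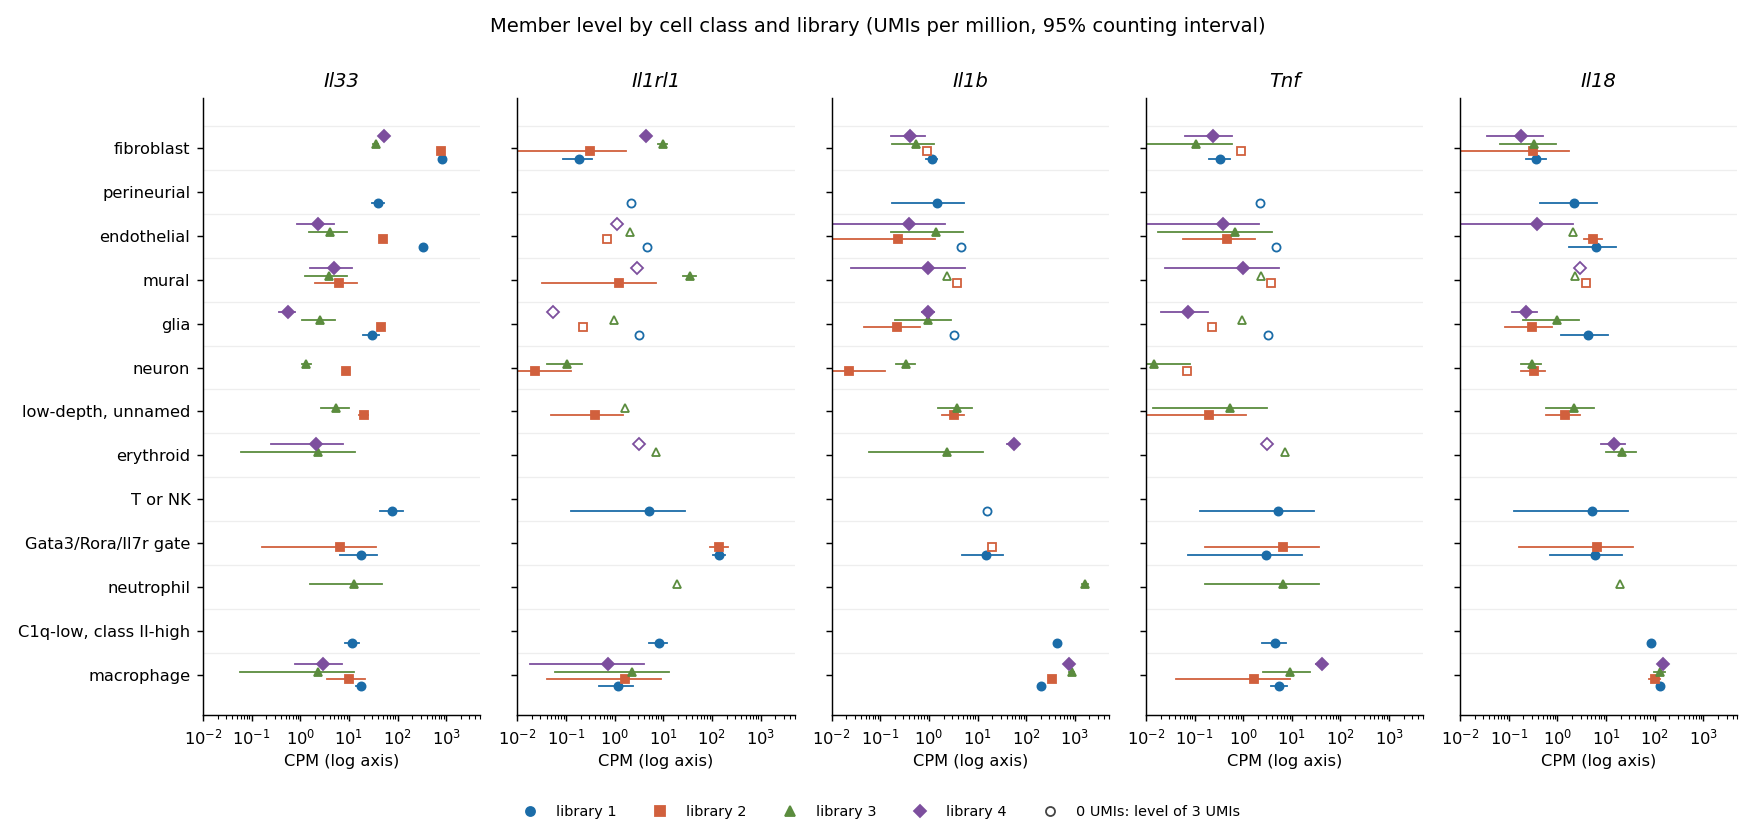
Level of each of the 5 genes by cell class in libraries 1 to 4, in CPM on a log axis, for classes of at least 50 cells. Points carry exact 95% intervals and hollow markers stand for 0 UMIs, drawn at the level of 3 UMIs. Il33 is highest in fibroblasts of every library (837, 764, 35.5 and 53.6 CPM), and Il1b and Il18 are high in macrophages.

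Glia carried far less Il33 than fibroblasts. Glia here are cells of the Schwann lineage, gated on a marker list that includes Sox10, S100b, Erbb3 and Cdh19. Their Il33 level was 29.2 CPM in library 1 (27 UMIs in 308 cells), 45.7 in library 2 (608 UMIs in 1728 cells), 2.57 in library 3 (8 UMIs in 856 cells) and 0.555 in library 4 (30 UMIs in 6762 cells). The fibroblast level was 28.6-fold the glial level in library 1 (log2 ratio 4.84, interval 4.30 to 5.44), 16.7-fold in library 2 (4.06, 3.93 to 4.19), 13.8-fold in library 3 (3.79, 2.79 to 5.01) and 96.5-fold in library 4 (6.59, 6.07 to 7.17). Past a 2-fold difference on the fibroblast side lay 10.7%, 15.3%, 17.8% and 17.0% of all measured genes (those with at least 20 UMIs on 1 side). Since the choice of genes used these same levels, nothing is read from that share. With called doublets kept, the log2 ratio of library 1 was 3.62.

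Free RNA from broken cells gives low counts in droplets of any type, so macrophages were taken as the background for Il33. They had 17.5 CPM (4.56% of cells with a UMI) in library 1, 9.85 (2.26%) in library 2, 2.31 (1.04%) in library 3 and 2.88 (4.21%) in library 4. The glial shares of cells were 5.84%, 21.5%, 0.701% and 0.385%, so among the 4 libraries the glial share lay far above this background in library 2. Il33 was also set against Dcn and Col1a1, fibroblast matrix genes. In library 1, glia held 34.2 Il33 UMIs per 1000 Dcn UMIs and macrophages 41.2, close to the 38.0 of fibroblasts. In library 2, glia held 1888 Il33 UMIs per 1000 Dcn UMIs against 47.7 in fibroblasts, and 180 against 74.0 per 1000 Col1a1 UMIs, so the excess was much smaller by Col1a1. Macrophages of library 2 stood at 462 per 1000 Dcn UMIs, on 6 Il33 UMIs. In library 3 the glial ratio to Dcn was 69.6 against 10.4 in fibroblasts, on 8 Il33 UMIs, and in library 4 it was 28.7 against 16.7, on 30.

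In library 2, Il33 was spread over the glial subsets except the one highest for myelin genes. Satellite glia wrap the cell bodies of sensory neurons, and 28.7% of the 1019 glia highest for the satellite list (Fabp7, Kcnj10, Glul, Slc1a3 and Hey2) had an Il33 UMI, at 46.7 CPM, which was near the 41.7 of the other glia (log2 ratio 0.16, -0.13 to 0.47). The cluster that holds many of these cells also has the pigment cell gene Tyrp1 among its leading genes. Glia highest for nonmyelinating Schwann cell markers had 79.8 CPM against 44.7 in the others (0.84, 0.27 to 1.36; 31 UMIs in 100 cells). Glia highest for the myelin genes had 3 UMIs, all in 1 of 224 cells, or 3.66 CPM, which set them below the other glia of that library (log2 ratio -3.73, interval -6.01 to -2.17). In library 4 the order was the reverse, at levels no higher than the macrophage background: 1.06 CPM in myelinating glia (12 UMIs, log2 ratio to the others 1.33, 0.14 to 2.46) and 0.289 in nonmyelinating glia (8 UMIs, -1.52, -2.90 to -0.30). In libraries 1 and 3 every glial subset had 17 UMIs or fewer.

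Endothelial cells, which line the vessels, were next after fibroblasts in library 1 and level with glia in library 2. Their Il33 level was 339 CPM in library 1 (217 UMIs, 54 of 96 cells) and 50.03 in library 2 (211 UMIs, 46 of 613 cells), against 4.16 in library 3 and 2.29 in library 4, each on 6 UMIs. The thinned shares of endothelial cells with Il33 were 33.3% in library 1 and 4.67% in library 2, where the thinned glial share was 7.14%. In library 2 the endothelial UMIs came mostly from 1 cluster of 87 cells led by Ccl21, Fabp4, Selp and Vwf, at 291 CPM. A cluster of 519 cells, 451 of them endothelial, had 8.48 CPM. Per 1000 Dcn UMIs, endothelial Il33 stood at 489 in library 1 and 808 in library 2, above the fibroblast ratios of 38.0 and 47.7. Perineurial cells, which form the barrier sheath around nerve fascicles, had 39.8 CPM in library 1 (55 UMIs, 23 of 171 cells). Their ratio was 9.06 Il33 UMIs per 1000 Dcn UMIs, below the 38.0 of fibroblasts, and the 6 fibroblast markers summed to 17041 CPM in them.

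Neurons taken as a class had Il33 at or below the macrophage level by CPM, but not by its ratio to fibroblast genes. In library 2, of 701 neurons, 28.0% had a UMI, at 8.89 CPM (386 UMIs) beside 9.85 in macrophages, and with a median depth 39.5-fold that of the library, and at 1500 UMIs per cell the share was 1.71%. The highest neuron cluster, led by the neuropeptide genes Tac1, Adcyap1 and Calca, had 25.5 CPM (22.5 to 28.7; 115 of 193 cells), and the lowest, led by Exoc1l and Adgrg2, had 0.245 CPM (1 UMI in 69 cells). Another cluster led by the same genes had 11.5 CPM (36 UMIs, 22 of 50 cells). The 5 satellite glia genes summed to 63.0, 56.4 and 223 CPM in these 3 clusters, and the part of glial RNA in the neuronal level was not tested. In library 3, 1692 neurons had 1.34 CPM (91 UMIs) beside 2.31 in macrophages. The macrophage levels rest on 6 Il33 UMIs in library 2 and 1 in library 3. Per 1000 Dcn UMIs, neurons held 627 Il33 UMIs in library 2 and 95.2 in library 3, against 47.7 and 10.4 in fibroblasts. Per 1000 Col1a1 UMIs they held 472 and 35.0, against 74.0 and 3.41. The source of this excess was not tested.

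Within fibroblasts, Il33 differed between subsets in every library. Fibroblasts were split by 3 gates on marker genes, which are gates and not cell types: Myoc with Thbs4, Pi16 with Tnfrsf11b, and Ucma with Gdf10 and Cilp. In library 1, Myoc/Thbs4 fibroblasts had 1606 CPM (3208 cells, 93.3% with a UMI) against 379 in the other fibroblasts, a log2 ratio of 2.08 (2.05 to 2.11). In library 2 the same gate had 1071 CPM (246 cells) against 443, a log2 ratio of 1.27 (1.15 to 1.40). In library 3 the levels were 51.4 and 34.5 CPM (0.58, -0.04 to 1.14), on 28 UMIs in 103 gated cells, and the interval held 0. In library 4 the order turned: 29.4 CPM in 649 gated cells against 77.8 in the others (log2 ratio -1.40, -1.62 to -1.19). The Myoc/Thbs4 gate was therefore the Il33-high side in libraries 1 and 2 and the Il33-low side in library 4.

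**Figure D2:**
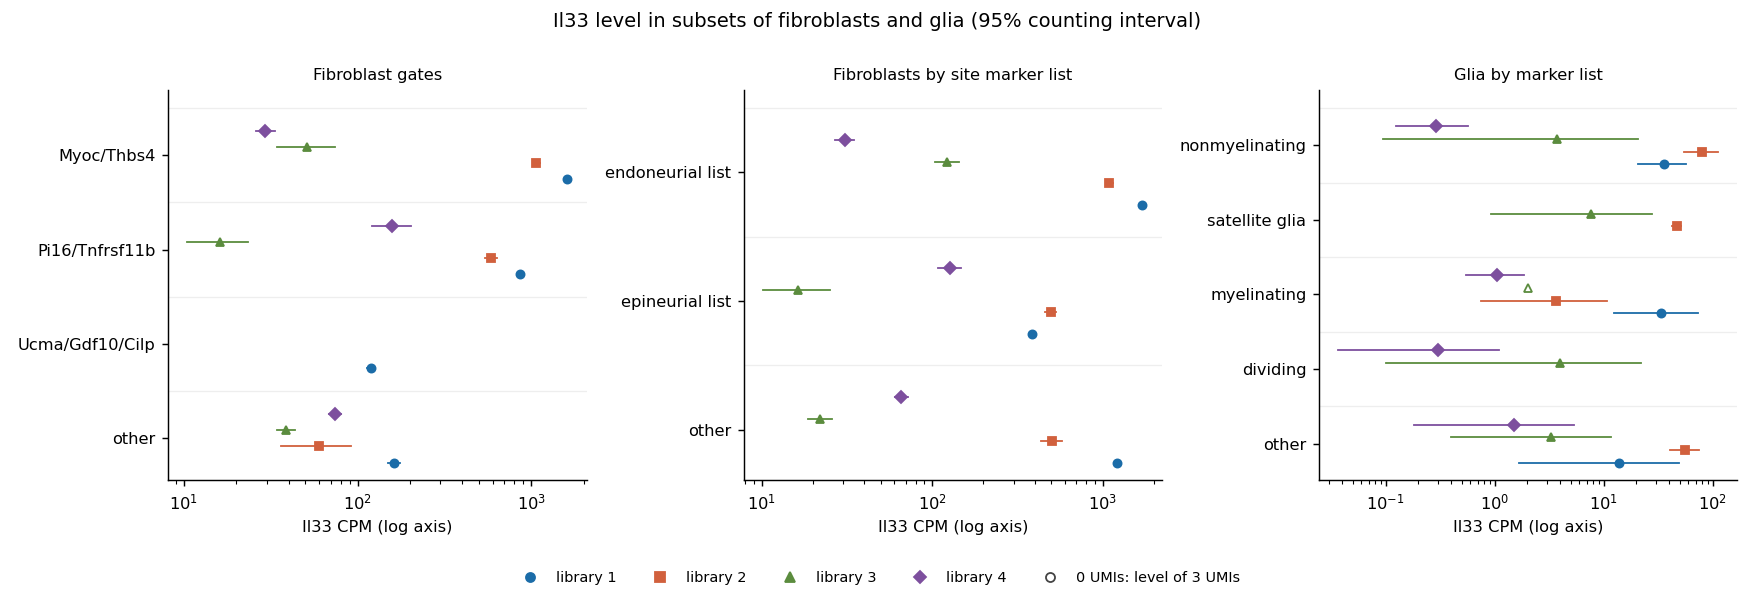
Il33 level in fibroblast gates (left), fibroblasts by site marker list (middle) and glia by marker list (right), for subsets of at least 20 cells in each library, in CPM on a log axis. Bars are exact 95% intervals and the hollow marker stands for 0 UMIs, drawn at the level of 3 UMIs. Among the fibroblast gates, Myoc/Thbs4 lies highest in libraries 1 and 2 (1606 and 1071 CPM) and below the other fibroblasts in library 4 (29.4 CPM).

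The Ucma/Gdf10/Cilp gate was the Il33-poor side of library 1: 119 CPM in 1361 cells against 1192 in the others (log2 ratio -3.33, -3.39 to -3.26). Even so, 52.9% of these cells had an Il33 UMI. Pi16/Tnfrsf11b fibroblasts were near the rest in library 1 (863 and 830 CPM, log2 ratio 0.06, which turned to -0.30 after thinning) and were lower in library 2 (587 and 861, -0.55) and library 3 (16.04 and 39.6, -1.30). In library 4 only 23 cells passed this gate, at 159 CPM.

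A second split used marker lists for the endoneurium, the tissue inside the fascicle (Sox9, Osr2, Wif1, Etv1 and Abca9), and the epineurium, the outer sheath (Pi16, Pcolce2, Dpt, Clec3b, Sfrp2 and Comp). Fibroblasts highest for the endoneurial list had more Il33 than the other fibroblasts in library 1 (1707 and 479 CPM, log2 ratio 1.83), library 2 (1096 and 506, 1.12) and library 3 (123 and 21.2, 2.54). In library 4 they had less (30.7 and 74.7, -1.28). The epineurial list gave the mirror order, with log2 ratios of -2.05, -0.96 and -1.23 in libraries 1 to 3 and 1.41 in library 4. Library 4 thus stood apart from the others under the Myoc/Thbs4 gate and under both lists, and no label says which tissue or age it holds. These splits divide the same fibroblasts and are not independent. In library 4 the Myoc/Thbs4 gate and the endoneurial list had equal Il33 UMI counts inside and outside, though their Il1rl1 counts differed. How many cells they share was not counted, so the turned order is read as a single reversal.

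Clusters made without any of the 5 genes showed the same spread. The 7 clusters of library 1 with at least 50 cells, nearly all of them fibroblasts, ran from 100 CPM of Il33, in a cluster led by Ucma and Fmod, through a median of 1059 to 2155 CPM, in a cluster led by Col9a1, Foxs1 and Sox9 where 98.5% of 977 cells had a UMI. The 2 fibroblast clusters of library 2 had 435 and 1055 CPM. In library 3, 1 cluster of 70 cells with Apod and Col9a1 among its leading genes had 457 CPM (61.4% of cells), and the lowest of its 6 fibroblast clusters had 5.48 CPM. The 3 fibroblast clusters of library 4 lay between 31.8 and 71.6 CPM. The low overall level of library 3 therefore held a small cluster at a level within the range of library 1, and library 4 held none among its 3 clusters.

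**Figure D3:**
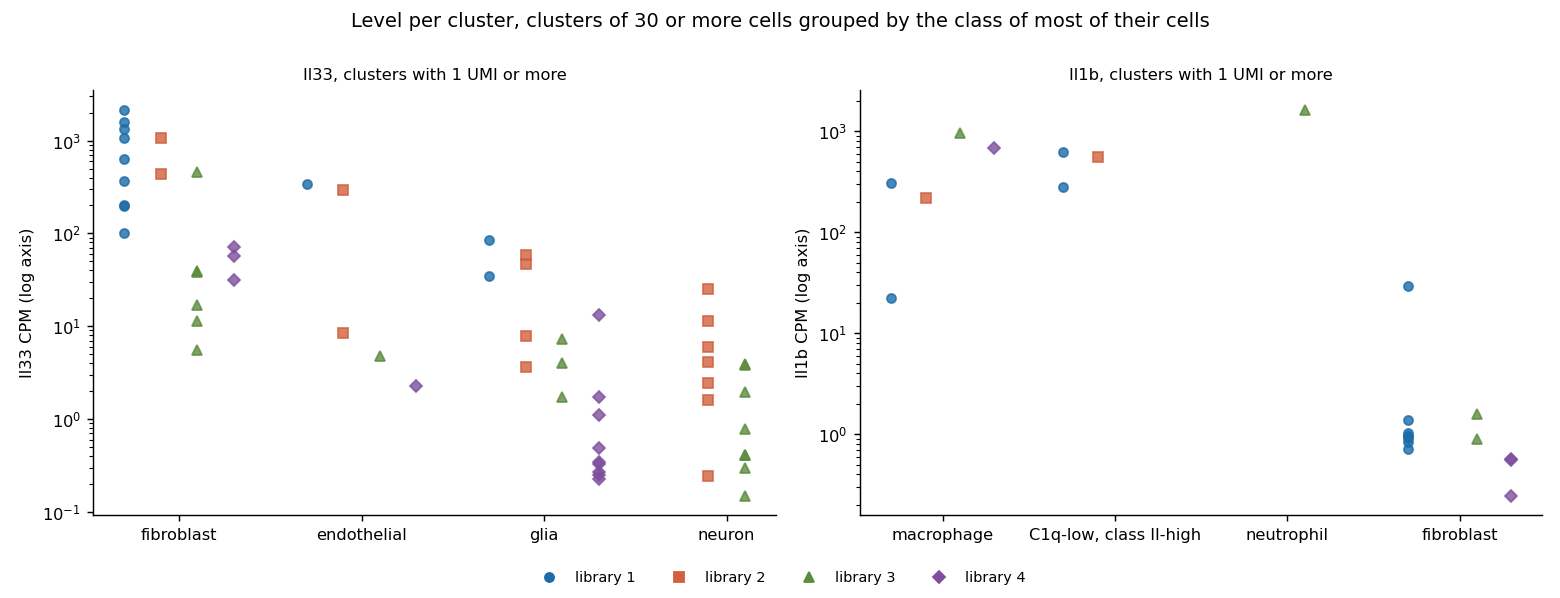
Il33 (fibroblast, endothelial, glial and neuron clusters) and Il1b (myeloid and fibroblast clusters) by cluster of at least 30 cells with 1 or more UMIs, in CPM on a log axis. Each point is 1 cluster of 1 library, placed under the class of most of its cells. Fibroblast clusters of library 1 reach 2155 CPM of Il33, and 1 cluster of library 3 stands at 457 CPM, away from the rest of its library.

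Il1rl1, the receptor for IL-33, was rare and, in libraries 1 and 2, was mostly in cells other than those that carried Il33. The kept cells of libraries 1 to 4 held 93, 29, 151 and 80 Il1rl1 UMIs. Glia and endothelial cells had 0 in every library. This allows up to 0.974% of glia (library 1, the fewest cells) and up to 3.80% of endothelial cells (library 4, the fewest) to have a UMI. In library 4, with the most glia, it allows up to 0.0444% of them. In library 1, 51.6% of the Il1rl1 UMIs fell in 102 cells gated on Gata3, Rora and Il7r, transcription factor and cytokine receptor genes of ILC2s, which made up 1.08% of the cells. The level there was 140 CPM (104 to 186; 31 of 102 cells), against 8.06 CPM in C1q-low class II-high myeloid cells (25 UMIs), 1.18 in macrophages (7 UMIs) and 0.185 in fibroblasts (10 UMIs). In library 2 the same gate took 51 cells with 22 of the 29 UMIs, at 143 CPM.

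The 102 gated cells of library 1 are called ILC2-like from 3 markers. They had Gata3 at 1337 CPM, Rora at 649, Il7r at 319 and the interleukin-2 receptor gene Il2ra at 805, with 1 UMI of the T cell gene Cd3e and 0 of Foxp3, the regulatory T cell factor. Il5, the eosinophil growth factor that ILC2s secrete, stood at 272 CPM (93 UMIs, 25 of 102 cells). Areg, another product of ILC2s, had 4 UMIs, and Il13, Il4 and Il9 had 0, which allows up to 2.94% of the cells to have a UMI. The interleukin-18 receptor gene Il18r1 stood at 237 CPM (45 of 102 cells), and 18 of the 31 cells with an Il1rl1 UMI also had one of Il18r1. The shared co-receptor Il1rap had 1 UMI in these cells. The 51 cells of library 2 stay unnamed, since mast cell and basophil genes (Mcpt8, Cma1, Cpa3) are among their 10 leading genes and 79 Cpa3 UMIs came from 1 cell. They had 3 Il5 UMIs and 58.7 CPM of Il18r1.

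In libraries 3 and 4, Il1rl1 was in a few stromal cells instead. In library 3, mural cells, the muscle-like cells around vessels, had 34.8 CPM (45 UMIs in 18 of 363 cells) and fibroblasts 9.79 CPM (91 UMIs in 30 of 1438 cells). The background for Il1rl1, neurons, stood at 0.103 CPM there (7 UMIs in 6 of 1692 cells). The 2 clusters made nearly all of mural cells had 1.46 and 0 CPM. Instead 79 UMIs fell in 27 cells of a cluster of 88 led by the smooth muscle genes Tagln, Actg2 and Acta2 (120 CPM), of which 44 were in its 64 mural cells and 29 in its 19 fibroblasts. A further 46 UMIs lay in 9 cells of a cluster led by Mfap5 and Fabp4 (24.3 CPM). In library 4, 76 of the 80 UMIs were in 17 of 1169 fibroblasts, with 31 of them in 1 cell. With glia at 0, fibroblasts were at least 10.2-fold higher than glia in library 3 and at least 80.5-fold in library 4, counting 3 UMIs for the glia. Both values rest on few cells. In library 4 the Il1rl1 of fibroblasts was also lower in the Myoc/Thbs4 gate than outside it, 0.821 and 8.13 CPM. Mast cells, known for ST2, were too few to read: 3 UMIs in 10 cells of library 4 and 1 UMI in 18 cells of library 1.

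Il1b was a myeloid transcript. Macrophages, the resident phagocytes of nerve, were gated on C1qa, C1qb, C1qc, Cd68, Csf1r, Cd163, Mrc1 and Aif1, which summed to 30188, 14045, 19751 and 24614 CPM in the gated cells. Their Il1b level was 200 CPM in library 1 (1192 UMIs, 25.5% of 1601 cells), 337 in library 2 (205 UMIs, 24.3% of 177), 858 in library 3 (371 UMIs, 58.3% of 96) and 770 in library 4 (1070 UMIs, 68.4% of 95). Fibroblasts, the background for this gene, had 62, 0, 5 and 7 Il1b UMIs, or at most 1.15 CPM. The macrophage level was 175-fold the fibroblast level in library 1 (log2 ratio 7.45, 7.08 to 7.84), at least 365-fold in library 2, 1595-fold in library 3 (10.64, 9.40 to 12.27) and 1872-fold in library 4 (10.87, 9.82 to 12.19). Of all measured genes, 18.3%, 13.0%, 19.0% and 12.7% were past 2-fold on the macrophage side, and nothing is read from that share because the choice of genes used these levels. With called doublets kept, the log2 ratio of library 1 was 5.20. Macrophages were shallow in library 1, at 0.536 of its median UMIs per cell, and deep in library 4, at 1.87.

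Other myeloid cells had as much Il1b or more. C1q-low class II-high cells, a gate on RT1-Da, RT1-Db1 and Cd74 (genes of antigen presentation) without complement C1q, had 428 CPM in library 1 (220 of 514 cells) and 550 in library 2 (18 of 36 cells). In library 1 they held 49.4% of the Il1b UMIs and macrophages 44.4%. Neutrophils had 4690 CPM in library 1 on 9 cells, 443 in library 2 on 13 cells and 1629 in library 3 (66.0% of 53 cells). In library 2, a further 28.0% of the Il1b UMIs lay in cells given no class, and most of these cells were in a cluster of 75 cells led by S100a9, S100a8 and Lyz2, at 1063 CPM. In library 4, 82.2% of the Il1b UMIs were in the 95 macrophages.

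**Figure D4:**
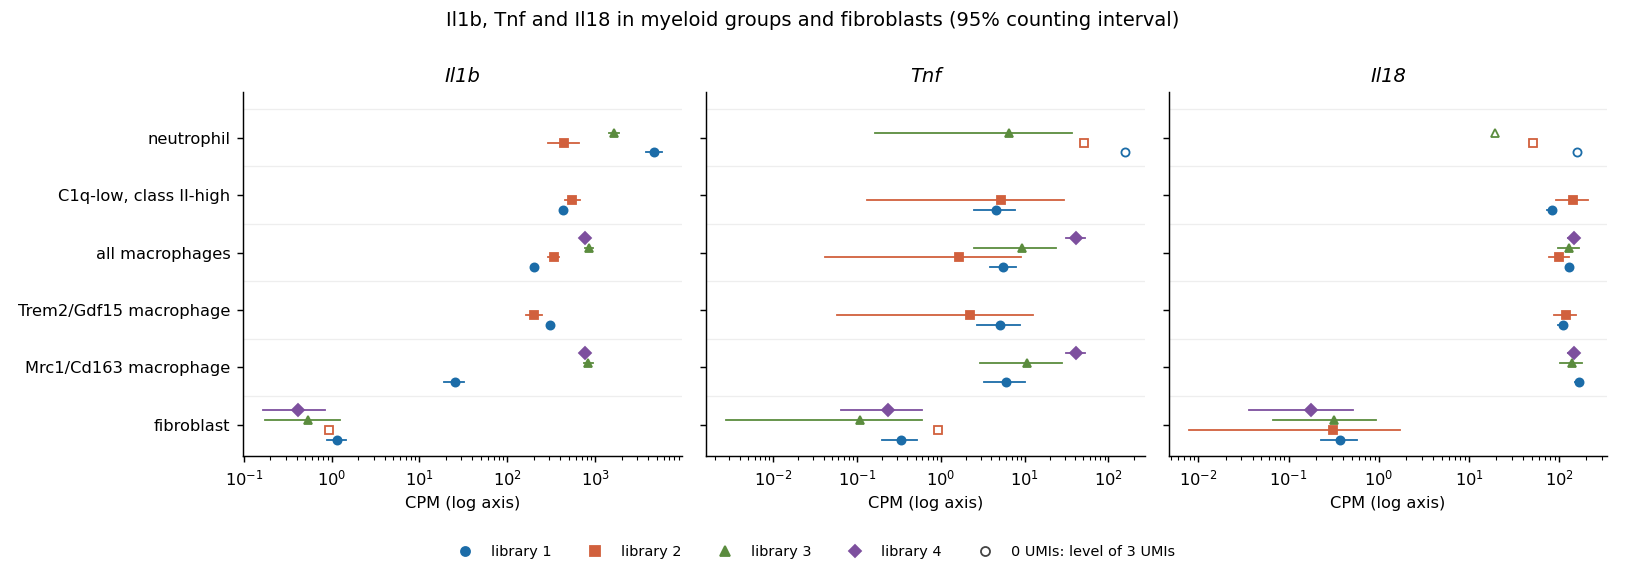
Il1b, Tnf and Il18 in myeloid classes, macrophage gates and fibroblasts of at least 9 cells by library, in CPM on a log axis with exact 95% intervals. Hollow markers stand for 0 UMIs, drawn at the level of 3 UMIs. Among the myeloid groups Il1b spans 25.1 CPM in Mrc1/Cd163 macrophages of library 1 to 4690 in its neutrophils. Fibroblasts lie at 1.15 CPM of Il1b or less. By summed UMIs without thinning, Il18 in macrophages stays between 100 and 145 CPM in all 4 libraries.

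Macrophage gates divided Il1b and Il18 in opposite directions. In library 1, the 547 macrophages high for Mrc1 and Cd163, scavenger receptor genes of tissue-resident cells, had 25.1 CPM of Il1b against 311 in the other 1054 (log2 ratio -3.63, -4.04 to -3.25). Il18 was higher in the same cells, 166 against 105 CPM (0.67, 0.46 to 0.88), and Tnf did not differ within counting error (6.07 and 5.21 CPM, 0.22, -0.89 to 1.29). The Trem2/Gdf15 gate is not a cell type, and of its genes only Trem2 is one of lipid-handling phagocytes. This gate had more Il1b than the rest in library 1 (305 and 121 CPM, 1.33, 1.16 to 1.51, and 3.76 with classes taken from clusters). It had less in library 2 (201 and 695, -1.79, -2.20 to -1.38). Il18 ran the other way each time, with 109 and 143 CPM in library 1 (-0.40, -0.61 to -0.18) and 118 and 54.0 in library 2 (1.12, 0.09 to 2.33). The order was not general: all 95 macrophages of library 4 passed the Mrc1/Cd163 gate and had 770 CPM of Il1b. The 82 that passed it in library 3 had 839 CPM. Neutrophil markers summed to 4.03 CPM in macrophages of library 1, 16.4 in library 2, 407 in library 3 and 39.6 in library 4, and their part in the macrophage Il1b was not tested.

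Il18 had like levels in the macrophages of all 4 libraries by summed UMIs, while at equal depth library 4 stood lowest. Its macrophage level was 128 CPM in library 1 (764 UMIs, 34.2% of cells), 100.1 in library 2 (61 UMIs, 26.0%), 127 in library 3 (55 UMIs, 41.7%) and 145 in library 4 (202 UMIs, 71.6%). The 4 intervals overlap, from 76.6 to 129 in library 2 to 126 to 167 in library 4. Fibroblasts had 20, 1, 3 and 3 Il18 UMIs. The macrophage to fibroblast log2 ratio was 8.44 (7.80 to 9.16) in library 1, 8.62 (7.0 to 10.94) in library 3 and 9.69 (8.12 to 11.98) in library 4. In library 2 it was 6.76, with the single fibroblast UMI set to the floor of 3 and an interval of 5.82 to 13.68. C1q-low class II-high cells had 82.3 CPM in library 1 and 141 in library 2. Neutrophils, which were high for Il1b, had 0 Il18 UMIs in libraries 1 to 3, which allows up to 5.66% of the 53 cells of library 3. Outside the myeloid classes, B cells had 65.4 CPM in library 1 on 6 UMIs and 70.7 in library 2 on 5 UMIs, and endothelial cells of library 2 had 5.45 CPM on 23 UMIs.

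Tnf was close to the limit of detection. The 4 libraries held 70, 7, 9 and 72 Tnf UMIs in all. Macrophages had 33, 1, 4 and 57 of them, or 5.55, 1.64, 9.25 and 41.0 CPM, and library 4 stood above the others with 36.8% of 95 cells positive and up to 5 UMIs in 1 cell. Fibroblasts had 18, 0, 1 and 4 UMIs, and glia of library 4 had 4 in 6762 cells. Tnf in macrophages of libraries 2 and 3 was not measured well enough to compare with any other class.

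Macrophages with Nlrp3, the inflammasome sensor that activates caspase-1, had Il1b more often than those without. In library 1, 42.2% (37.2 to 47.3) of the 384 macrophages with an Nlrp3 UMI also had an Il1b UMI, against 20.3% (18.1 to 22.7) of the other 1217. In library 3 the shares were 80.6% of 31 and 47.7% of 65, and in library 4 78.3% of 60 and 51.4% of 35, where the intervals overlap (65.8 to 87.9 and 34.0 to 68.6). In library 2 they were 33.3% of 18 and 23.3% of 159, too few to tell apart. The median depth was 3664 UMIs with Nlrp3 and 3433 without in library 1, and 4139 and 3115 in library 3. With Il18 the order in library 1 was the reverse, at 21.9% (18.5 to 25.6) of 548 macrophages with Il18 and 27.4% (24.8 to 30.2) of 1053 without, although the cells with Il18 were deeper. In library 4, 65.7% of the 35 macrophages with Tnf had Il1b and 70.0% of the 60 without, a difference within counting error. The order was the other way in library 1, at 39.4% (22.9 to 57.9) of 33 and 25.3% (23.1 to 27.5) of 1568, with intervals that overlap.

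Other ligands and receptors of the family were taken from a fixed list, and each with at least 20 UMIs in some class is given here. Il1rn, the natural antagonist of the IL-1 receptor, was likewise a myeloid transcript, at 63.0, 59.1, 64.7 and 46.8 CPM in macrophages and 51.9 in C1q-low class II-high cells of library 1. Il1r1, the receptor for IL-1, was highest in vessels, at 15.6, 8.54, 20.1 and 26.3 CPM in endothelial cells and 18.5 in mural cells of library 4. Il1r2, the IL-1 decoy receptor, stood at 1395 CPM in neutrophils of library 3, 142 in C1q-low class II-high cells of library 1 and 22.9, 39.4, 106 and 14.4 in macrophages. Il1rap was mainly glial, at 14.1, 3.23, 9.31 and 12.9 CPM, with 700 UMIs in the glia of library 4.

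Il18r1 and Il18rap, the 2 chains of the IL-18 receptor, were lymphoid and myeloid. Il18rap stood at 51.1 CPM in T or NK cells of library 1 (10 UMIs), 21.3 in its C1q-low class II-high cells and 11.8 in its macrophages. Il18bp, the secreted IL-18 inhibitor, was outside the Il18 producers, at 47.0 CPM in perineurial cells, 32.8 in endothelial cells and 23.7 in fibroblasts of library 1, and 33.2 in endothelial cells of library 2. Sigirr, an inhibitory receptor of the family, was endothelial, at 92.0, 77.3, 25.6 and 28.2 CPM. Il1rl2, the IL-36 receptor, reached 1.23 CPM at most. Areg had 22.9 CPM in C1q-low class II-high cells of library 1, 8.23 in fibroblasts of library 4 (140 UMIs) and 7.42 in those of library 3 (69 UMIs). Glia of library 4 held 306 Areg UMIs, at a lower level of 5.66 CPM. Il1a, Il36b, Il1f10 and Il1rapl1 had at most 19, 11, 14 and 8 UMIs in a class, and Il36a, Il36g and Il36rn had 0.

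Downstream genes were counted by list, leaving the 5 genes out. Between fibroblasts and glia, genes of IL-1 receptor signalling past 2-fold were 3 higher and 2 lower of 9 in library 1, and 2 higher and 0 lower of 9 in each of libraries 2, 3 and 4. Of all measured genes, 10.7%, 15.3%, 17.8% and 17.0% were higher in fibroblasts of libraries 1 to 4, and 36.5%, 14.1%, 11.8% and 15.4% were lower. In libraries 2, 3 and 4 the 2 of 9 higher lie near the share of all genes, and nothing is read from them. The share called lower in library 1 is inflated by the floor of 3 UMIs, which stood at 3.25 CPM in its 308 glia. A gene well below that level in fibroblasts was counted as lower even with 0 glial UMIs. No lean of library 1 to the glial side is read from it. The NF-kB list had 7 of 9 lower in library 1, among them Ikbkg (log2 ratio -3.00), Relb (-2.10) and Nfkb2 (-2.01). The same floor limits this count and that of the TNF list in library 1. It had 1 of 7, 0 of 6 and 1 of 9 lower in libraries 2, 3 and 4. TNF receptor and signalling genes had 4 of 9 lower in library 1, Birc3 (-2.34), Ripk1 (-1.89) and Tnfrsf1a (-1.36) by the largest steps, and 5 of 7 higher in library 3 and 3 of 9 in library 4, where 17.8% and 17.0% of all genes were higher. Of the receptors, Il1rap was lower in fibroblasts of library 1 (-3.48).

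Between macrophages and fibroblasts, the inflammasome and processing genes leaned to macrophages. In library 1, 6 of 11 were higher and 0 lower, with a median log2 ratio of 1.91 beside -0.06 over all genes. The largest were Nlrp3 (8.42), Nlrc4 (7.57) and Aim2 (6.50, with the 1 UMI of fibroblasts set to 3). In libraries 2, 3 and 4, 4 of 7, 3 of 7 and 4 of 8 were higher. Over all measured genes, 18.3%, 13.0%, 19.0% and 12.7% were higher in macrophages of libraries 1 to 4. NF-kB genes were higher in 5 of 9, 2 of 7, 4 of 6 and 3 of 7 and lower in 0, led in library 1 by Rel (4.09), Nfkb2 (2.69) and Relb (2.47). TNF receptor and signalling genes were higher in 4 of 9, 3 of 8, 3 of 7 and 4 of 9, with Tnfrsf1b, the TNF receptor of immune cells, at 4.24 in library 1. The share of all measured genes lower in macrophages was 24.4%, 19.2%, 16.3% and 24.2%.

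Inside the 2 classes of library 1, the lists were counted between gates. In Myoc/Thbs4 fibroblasts, where Il33 was high, 3 of 8 inflammasome and processing genes were lower and 1 higher (Casp4 2.46, Casp1 -2.43, Prtn3 -2.22). In the same cells 3 of 8 NF-kB genes and 2 of 9 TNF genes were lower (Nfkbia -1.22, Tnfrsf1b -2.28). Over all genes 8.43% were higher and 14.7% lower in that gate, a share near that of the TNF list. In Mrc1/Cd163 macrophages, where Il1b was low, 4 of 8 NF-kB genes (Rel -4.09, Nfkb2 -3.33, Nfkb1 -3.15) and 4 of 9 TNF genes (Birc3 -3.33, Cflar -2.72, Tnfaip3 -2.63) were lower, and Nlrp3 (-1.93) and Il1rn (-4.86) were lower with them. Casp1, the enzyme that cuts both precursors, was higher there (1.36). Over all genes 16.7% were higher and 14.6% lower.

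The genes with the pattern most like each member were found over 31 units of 1 library and 1 class, by Pearson correlation of log2(CPM + 10) among 13133 genes. The units share libraries and differ in depth, so the values describe and test nothing. For Il33 they were Ppl (0.864), Sfrp4, Sfrp2, Kazald1 and Efemp1 (0.842), and Sfrp2 is on the epineurial list. For Il1b they were Nlrp3 (0.980), Lilrb3a, Spi1, Ncf4 and Igsf6 (0.958). For Il18 they were Clec4a1 (0.963), Pld4, Ctss, Cd68 and Nfam1 (0.953), and Cd68 is on the macrophage list. For Il1rl1 they were Il2ra (0.904), Gata3, Ptprv, Olah and Hormad2 (0.860), and Gata3 was used to gate the units where Il1rl1 is highest. By Spearman correlation, the 5 most alike shared Efemp1 for Il33, Nlrp3, Ncf4 and Igsf6 for Il1b, and no gene for Il18 or Il1rl1. Tnf had too few UMIs to be included.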

How the data were processed

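Single-cell RNA libraries from sciatic nerve and DRG were analysed from the authors' deposited matrix of raw UMI counts (25399 genes), which is from Cell Ranger 3.1.0 per the file headers. CASAVA 1.8, Seurat and the build Rnor_6.0 are listed in the submitters' processing notes without their roles. Barcodes with at least 500 genes and at most 20% mitochondrial UMIs were kept, and Scrublet doublets (scanpy 1.11.5) were removed. Each library was embedded from 2000 variable genes and 30 principal components and clustered (leidenalg 0.10.2, resolution 0.8, 102 clusters in all). The 66 pathway genes, the 5 studied genes among them, were left out of embedding and gating. A cell's class was the marker list with the highest score averaged over the cell and its 10 nearest neighbours, with a minimum of 0.2 (neuron 0.45, fibroblast 0.35) and a margin of 1.3. These limits were set after the counts were seen. Barcodes of the neuron gate under 5000 UMIs stay unnamed. Genes needed 20 UMIs on 1 side of a contrast, counts under 3 were set to 3 in ratios, and a gene was called past 2-fold. Named genes were the 5 members, ligands, receptors and decoys with 20 UMIs in a class, up to 3 examples per other list (largest ratio in library 1) and the 5 most like genes. Members and lists were chosen with earlier results of these data known. The scripts were tested on simulated data. Intervals used scipy 1.17.1, tables pandas 2.3.3 with numpy 2.4.6 under Python 3.11.15, neighbour graphs scikit-learn 1.9.0 and igraph 0.11.9, cell matrices anndata 0.12.19 and figures matplotlib 3.10.9.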

Additional observations from a re-analysis of the deposited data

How the results depend on the processing

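Processing moved the size of some ratios beyond the main counting interval. Of the 206 alternative values of the ratios between classes and subsets, 177 stayed inside it and 29 moved. For the fibroblast to glia log2 ratio of Il33, library 1 gave 3.62 with doublets kept, 3.46 with classes taken from clusters, 5.78 after thinning and 5.65 as a mean over cells. Library 2 gave 4.59 at a mitochondrial limit of 10%, 3.88 after thinning and 4.23 as a mean over cells, and library 4 gave 5.53 as a mean over cells. For the macrophage to fibroblast log2 ratio, Il1b of library 1 gave 5.20 with doublets kept and 6.81 with cluster classes, Il1b of library 2 gave 7.91 with cluster classes, and Il18 of library 1 gave 6.66 with doublets kept. Thinning gave 6.12 (library 2) and 9.17 (library 4) for Il1b, 4.42, 6.59 and 5.14 (libraries 2, 3 and 4) for Il18 and 4.30 for Tnf of library 4. In these thinned ratios fibroblasts keep few UMIs and are held at the floor of 3. The Myoc/Thbs4 ratio of Il33 in library 1 was 2.04 with doublets kept, 2.12 with cluster classes and 1.85 after thinning. It was 1.76 after thinning in library 2 and -1.13 with cluster classes in library 4. In library 1 the Ucma/Gdf10/Cilp ratio was -3.55 with cluster classes, and the Pi16/Tnfrsf11b ratio was 0.38 with cluster classes and -0.30 after thinning. The Trem2/Gdf15 ratio of Il1b in library 1 was 0.94 at the 10% limit, 1.58 at a minimum of 1000 genes and 3.76 with cluster classes. The cause was not tested, and no ratio changed sign but that of Pi16/Tnfrsf11b. Of the levels and list counts, 54 moved and 176 did not. Depth limits Tnf and Il1rl1 most, with at most 72 and 151 UMIs in a library.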
